A study of Mus musculus with 20 samples.

Results

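The enzymes of glycolysis and of the tricarboxylic acid (TCA) cycle were followed at the RNA level in mouse whole brain, as 35 genes chosen by name out of 19463 genes in the deposited table. All 35 had a value in every mouse and passed the filter on low values (a mean of at least 10) in each comparison. They comprise 14 genes of glycolysis from hexokinase to pyruvate kinase, 2 lactate dehydrogenase subunits, 5 genes by which pyruvate enters mitochondrial metabolism, 12 genes of the TCA cycle and 2 cytosolic partners of cycle enzymes (Idh1 and Mdh1). Brains came from male C57BL/6J mice, and the 4 groups (WT and Katnal2-KO, each at P21, labelled 3 weeks, and at P70, labelled 10 weeks) held 5 untreated mice apiece. In KO mice both copies of Katnal2 lacked exon 3 in all cells, which shifts the reading frame. Katnal2 encodes a relative of the microtubule-severing katanins, for which severing itself has not been seen. The deletion was made by treating embryos with a cell-permeable Cre, and the line came from targeted EUCOMM embryonic stem cells and was backcrossed to C57BL/6J. Weaning took place at about P21, so the younger mice were sampled around weaning and the older ones after it.

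Glycolysis splits glucose into pyruvate in the cytosol, and lactate dehydrogenase converts pyruvate and lactate into each other. Pyruvate dehydrogenase turns pyruvate into acetyl-CoA in mitochondria, pyruvate carboxylase turns it into oxaloacetate, and the TCA cycle oxidizes acetyl-CoA to feed the respiratory chain. Glucose is the main fuel of the adult brain, whereas the suckling brain also burns ketone bodies, which reach the cycle without passing through glycolysis or pyruvate dehydrogenase.

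The values are the authors' normalized counts, and a log2 fold change below is a difference of means of log2(value + 1). Their sums ran from 27310523 to 28423042 per mouse. From the spacing of low values, depth was estimated at 25800000 to 36300000 reads per mouse at P21 and 23000000 to 27200000 at P70. Marker genes of all 10 cell types checked (neurons, glia, vessels, ventricle linings and blood) were detected with none at 0, and the summed excitatory neuron markers lay between 103252 and 120168 normalized counts in every mouse. Katnal2 itself had 78.1 to 96.0 normalized counts in P21 KO and 99.3 to 115 in P21 WT mice, with no overlap, and 95.1 to 125 in P70 KO against 101 to 141 in P70 WT mice, with overlap. Gene-level RNA does not measure the loss of a single exon. The replicate 5 mice of both P70 groups stood apart from all others on the first principal component of all genes (scores 70.3 and 55.4, against -26.6 to 11.4 in the other mice), so the calls, the interaction, the ratios between ages and the other pathway genes named for P70 are also given without both of them.

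**Figure D1:**
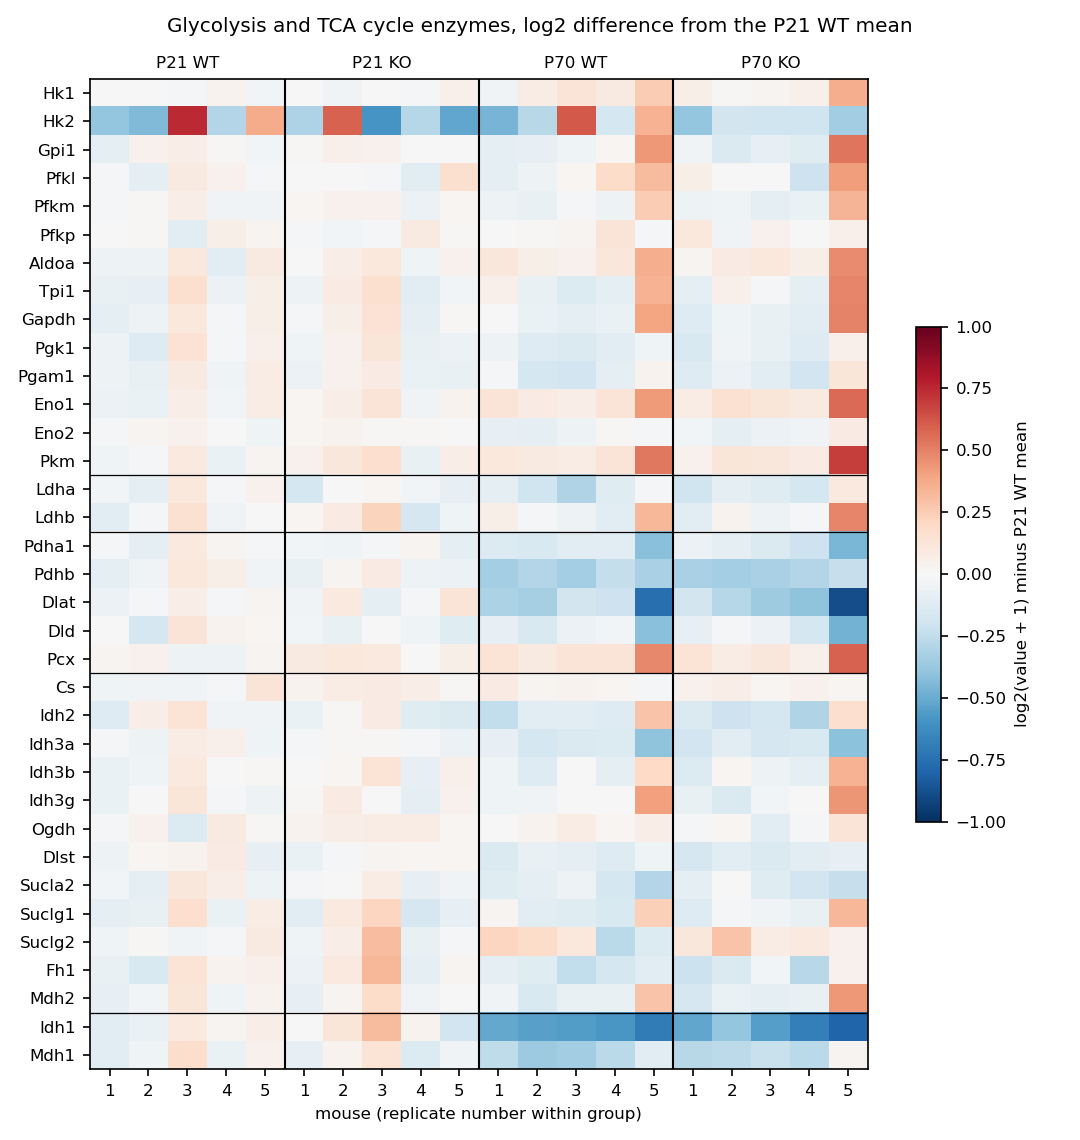
Heat map of the 35 enzyme genes (rows, in pathway order, with lines between roles) in the 20 mice (columns, by group and replicate number), coloured by log2(value + 1) minus the P21 WT mean. Idh1 is blue in all 10 P70 mice, Pdhb and Dlat are blue in all 10 as well, and the replicate 5 columns of both P70 groups differ from their neighbours in many rows.

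Compared per kilobase of the principal transcript, P21 WT brains held far more RNA for the lower steps of glycolysis than for most of the TCA cycle. Gapdh, which oxidizes glyceraldehyde 3-phosphate, was first with a level of 38570 normalized counts per kilobase, above 99.9% of the genes. Aldoa, the aldolase that splits the hexose, was next at 23880 per kilobase, followed by Pkm, pyruvate kinase, at 13110. The next places went to Mdh1, the cytosolic malate dehydrogenase (9445 per kilobase), Ldhb, the lactate dehydrogenase subunit common in heart and neurons (9437), Eno1 (8797), Tpi1 (8792) and Eno2, the neuronal enolase (8601). Those 5 levels lay close together beside coefficients of variation of 2.37% to 8.02% between the 5 mice, so their order is not resolved. Within the mitochondrial enzymes, Mdh2 (4921 per kilobase), Idh3b (3577) and Idh3g (2661) stood highest, while Dlat (771.5), Idh2 (612.8), Pcx (574.1) and Suclg2, the GTP-forming succinyl-CoA synthetase subunit (135.8), stood low. Hk2, the inducible hexokinase, was last at 27.06 per kilobase, below its brain counterpart Hk1 at 2552. Hk2 was also the most variable member, with a coefficient of variation of 39.5% in P21 WT mice, whereas 34 of the 35 members stayed under 10% in that group and the median of all genes was 9.88%. The symbol Aldoa has 2 records in the table, of which the abundant one was used. Gapdh, Eno1, Ldha and Pgk1 have near-identical copies elsewhere in the genome, so their split of reads is uncertain.

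Whether loss of Katnal2 alters these enzymes was asked at each age. At P21 none of the 35 passed an adjusted p of 0.05 (limma with Benjamini-Hochberg adjustment over 17610 genes), and 0 of all genes did (0.0% called), with 429 genes and 0 members at an unadjusted p under 0.05. At P70 the count was again 0 of 35 members and 0 of 17613 genes (0.0% called), with 199 genes and 0 members at an unadjusted p under 0.05. The paper, which used DESeq2, reported small sets of differentially expressed genes at both ages. The counts of 0 therefore hold for these limma fits only. The members' log2 fold changes, KO over WT, ran from -0.22 (Hk2) to 0.07 (Pcx) at P21 and from -0.27 (Hk2) to 0.10 (Suclg2) at P70, with 22 of 35 above 0 at each age and medians of 0.01 and 0.01, beside 0.00 and 0.00 for all genes. In no member did the 5 KO mice separate from the 5 WT mice at either age, against 0.46% of all genes at P21 and 0.193% at P70.

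The intervals set what could have been missed. At P21 the 95% interval of 34 members lay within a 1.2-fold change either way, the exception being Hk2, whose interval ran from -0.78 to 0.34 on the log2 scale. At P70 21 members were bounded within 1.2-fold and 34 within 1.5-fold. Without both P70 replicate 5 mice, 33 members were bounded within 1.2-fold, log2 fold changes ran from -0.17 (Hk2) to 0.08 (Suclg2), 13 were above 0, and 0 members and 1 gene (0.00567% called) passed.

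**Figure D2:**
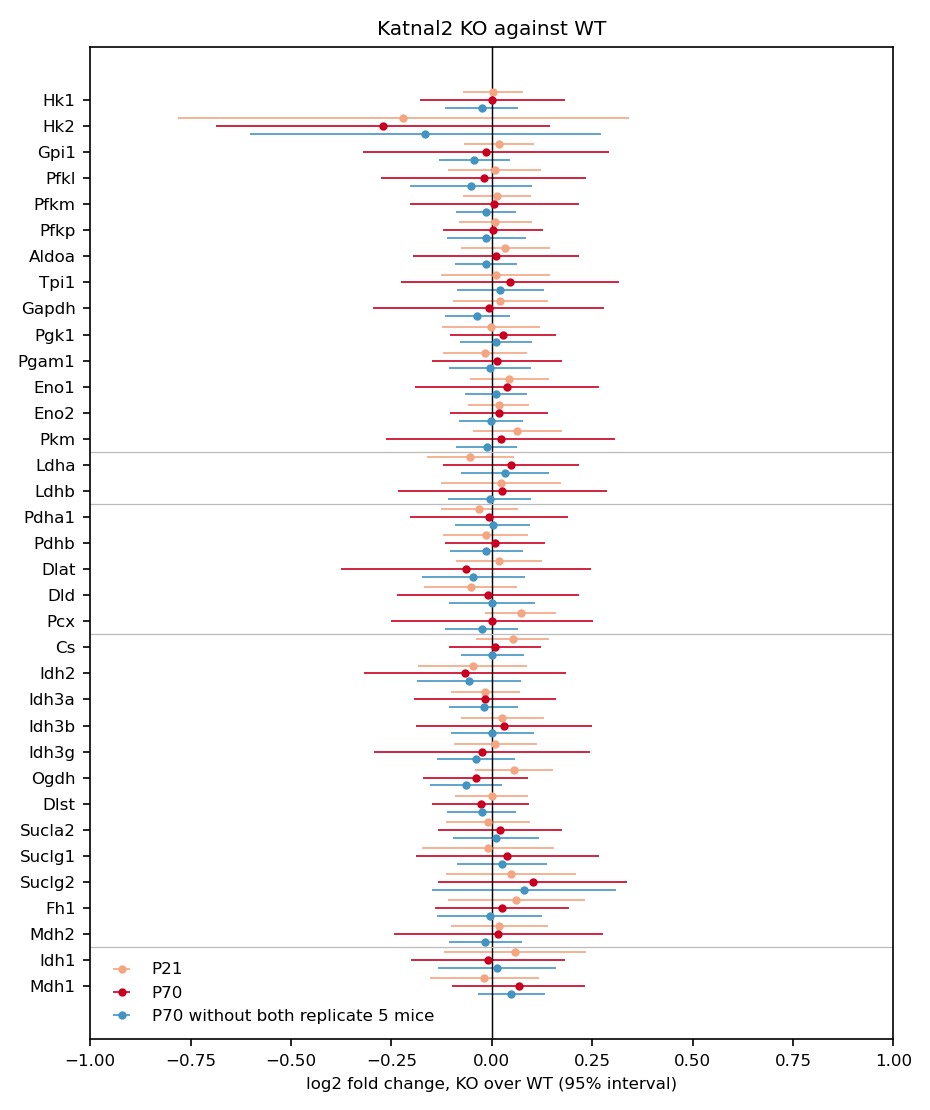
Log2 fold change, KO over WT, of each enzyme gene (rows, in pathway order) with its 95% interval from limma, at P21 (orange), at P70 (red) and at P70 without both replicate 5 mice (blue). All the intervals include 0, and Hk2 has the widest.

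The members with the smallest p in each genotype comparison show how small these differences were. Pcx, pyruvate carboxylase, which refills the cycle with oxaloacetate in astrocytes, had 2486, 2512, 2491, 2333 and 2429 normalized counts in P21 KO mice of replicates 1 to 5 and 2374, 2399, 2253, 2254 and 2378 in P21 WT mice. The highest values were KO and the lowest WT, but the groups overlapped (log2 fold change 0.07, standard error 0.04, adjusted p = 1.00 by limma). Pkm had 32877, 34358, 35781, 30272 and 33389 in P21 KO and 30988, 31338, 34123, 30452 and 32471 in P21 WT mice. The lowest of the 10 was a KO mouse (log2 fold change 0.06, standard error 0.05, adjusted p = 1.00). Cs, citrate synthase, the entry step of the cycle, had 6365, 6523, 6571, 6490 and 6256 in P21 KO and 6037, 6049, 6050, 6162 and 6794 in P21 WT mice. Here 4 of the 5 WT mice lay below all KO mice and the WT mouse of replicate 5 above them all (log2 fold change 0.05, standard error 0.04, adjusted p = 1.00).

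At P70 the smallest p was that of Hk2, with 107.5, 123.6, 122.3, 122.9 and 110.4 normalized counts in KO and 101.8, 116.0, 215.6, 124.3 and 179.3 in WT mice. Replicates 3 and 5 of the WT group were high and the other 3 lay at 101.8 to 124.3, around the KO range of 107.5 to 123.6 (log2 fold change -0.27, standard error 0.19, adjusted p = 1.00 by limma). Suclg2 had 493.1, 555.4, 481.3, 489.3 and 471.8 in P70 KO and 530.6, 519.5, 492.6, 379.7 and 414.4 in P70 WT mice, with 2 low WT mice and overlapping groups (log2 fold change 0.10, standard error 0.11, adjusted p = 1.00). Mdh1 had 16470, 16715, 17090, 16603 and 20336 in P70 KO and 16765, 15579, 15720, 16617 and 18443 in P70 WT mice. In each of these groups the replicate 5 mouse was the highest (log2 fold change 0.07, standard error 0.08, adjusted p = 1.00). With 1 mouse left out at a time, these P70 log2 fold changes ran from -0.39 to -0.12 for Hk2, from 0.03 to 0.15 for Suclg2 and from 0.01 to 0.11 for Mdh1.

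Between P21 and P70 a few enzyme RNAs were lower at the older age, Idh1, Dlat and Pdhb in both genotypes and Mdh1 in WT. With all mice the calls lay at the entry of pyruvate or in the cytosolic partner group, and without both P70 replicate 5 mice they also took in Ldha in WT and Gpi1, Idh3a and Dlst in KO. In WT mice 4 of the 35 members passed the adjusted threshold, all lower at P70 (Idh1, Dlat, Pdhb and Mdh1, or 11.4%), where 9.32% of 17630 genes passed in either direction, 4.62% higher and 4.7% lower. In KO mice 3 of 35 were lower (Idh1, Dlat and Pdhb, or 8.57%), where 8.32% of 17641 genes passed in either direction, 3.78% higher and 4.53% lower. These shares of members called lie near the either-direction shares of all genes and above the lower-only shares. They rest on 4 and 3 members, so they are not read as a feature of the pathway as a whole. The median log2 fold change of the members was -0.01 in WT and -0.02 in KO, beside 0.00 and -0.01 for all genes. With all mice 18 of 35 members in WT and 20 in KO were below 0. Without both P70 replicate 5 mice, 25 in WT and 28 in KO were. Signs over all genes were not counted. Between ages, the intervals of 19 members in WT and 17 in KO lay within a 1.2-fold change either way, and 34 and 33 within 1.5-fold. An unadjusted p under 0.05 by limma was reached by 12 members in WT and 6 in KO. Members that did not pass are therefore not shown to be unchanged with age. Age cannot be told apart from any batch of preparation or sequencing that went with it, and in whole brain fewer cells of a type and less RNA per cell cannot be told apart.

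For the 3 members lower at P70 in both genotypes, the 250 bases before the RefSeq transcription start are shown. Any part of promoter sequence in their difference between ages was not tested. They are from RefSeq on GRCm38.p6, all on the minus strand, 5′ to 3′, with the motif GGGCGG (the GC box) in capitals on either strand. Idh1 lies at chr1:65186480-65186729, Dlat at chr9:50659781-50660030 and Pdhb at chr14:8172993-8173242.
Idh1: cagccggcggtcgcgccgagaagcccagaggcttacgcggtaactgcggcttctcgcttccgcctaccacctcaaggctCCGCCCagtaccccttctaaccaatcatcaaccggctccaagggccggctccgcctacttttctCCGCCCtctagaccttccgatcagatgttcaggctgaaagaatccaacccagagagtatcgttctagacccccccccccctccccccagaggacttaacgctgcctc
Dlat: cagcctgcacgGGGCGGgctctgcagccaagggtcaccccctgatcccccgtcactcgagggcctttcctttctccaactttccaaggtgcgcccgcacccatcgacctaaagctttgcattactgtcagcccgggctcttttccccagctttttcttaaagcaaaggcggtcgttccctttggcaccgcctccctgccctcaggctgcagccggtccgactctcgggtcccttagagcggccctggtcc
Pdhb: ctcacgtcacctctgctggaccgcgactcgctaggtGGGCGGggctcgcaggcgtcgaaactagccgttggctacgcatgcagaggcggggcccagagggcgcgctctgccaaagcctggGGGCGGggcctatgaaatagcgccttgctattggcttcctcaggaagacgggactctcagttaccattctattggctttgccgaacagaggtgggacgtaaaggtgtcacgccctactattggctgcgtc

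GGGCGG occurred 2 times before Idh1, 1 time before Dlat and 2 times before Pdhb. It was present before at least 1 listed start of 22 of the 34 members that had a promoter sequence. Counted per promoter, where a gene can have several, it was present before 32.7% of 32851 mouse promoters of the same length. The first is a share of genes and the second of promoters, so they cannot be compared directly. The motifs AAGGTCA (bound by nuclear receptors such as ERR alpha), CACGTG (an E-box) and the NRF1 site, searched on both strands, were found in none of the 3 windows and in 4.08%, 6.02% and 0.782% of all promoters, so no match overlapped another. The genes themselves lie, on the same strand of GRCm38, at chr1:65158616-65186500 (Idh1), chr9:50634633-50659780 (Dlat) and chr14:8165996-8173025 (Pdhb) in GENCODE M21, so the windows before Idh1 and Pdhb reach 21 and 33 bases into the GENCODE genes. Idh1 has 2 RefSeq starts 7337 bases apart, the window shown lies before the upstream one, and gene-level values do not tell which start was used.

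Idh1, the cytosolic NADP-dependent isocitrate dehydrogenase and a source of NADPH for lipid synthesis, differed most. It had 1118, 1153, 1292, 1232 and 1267 normalized counts in P21 WT mice and 849.1, 828.5, 819.5, 809.7 and 745.6 in P70 WT mice. In KO mice it had 1214, 1318, 1509, 1241 and 1058 at P21 and 842.5, 925.2, 824.3, 755.2 and 693.7 at P70. The lowest P21 mouse of the 10 lay above the highest P70 mouse in both genotypes. The log2 fold change was -0.58 in WT (standard error 0.07, adjusted p = 0.000232 by limma) and -0.65 in KO (standard error 0.10, adjusted p = 0.00238), which is 0.669 and 0.639 of the P21 level.

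Pyruvate dehydrogenase is built of the E1 subunits encoded by Pdha1 and Pdhb, the E2 acetyltransferase encoded by Dlat and the E3 dehydrogenase encoded by Dld. Pdhb had 3440, 3579, 3949, 3823 and 3576 normalized counts in P21 WT and 2895, 2989, 2898, 3103 and 2928 in P70 WT mice. In KO mice the values were 3494, 3729, 3883, 3536 and 3526 at P21 and 2938, 2900, 2937, 2995 and 3121 at P70. The ages did not overlap in either genotype. The replicate 5 mouse was the highest of the P70 KO group and lay within the range of the P70 WT group. The log2 fold change was -0.31 in WT (standard error 0.06, adjusted p = 0.00577 by limma) and -0.29 in KO (standard error 0.06, adjusted p = 0.0076). With replicate number as a block the adjusted p in KO was 0.0501.

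Dlat had 2987, 3062, 3266, 3078 and 3171 normalized counts in P21 WT and 2493, 2470, 2742, 2701 and 1846 in P70 WT mice. In KO mice it had 3040, 3327, 2928, 3082 and 3402 at P21 and 2741, 2554, 2437, 2351 and 1679 at P70. Again the ages did not overlap, but the replicate 5 mouse was by far the lowest of each P70 group. The log2 fold change was -0.36 in WT (standard error 0.10, adjusted p = 0.0324 by limma) and -0.44 in KO (standard error 0.12, adjusted p = 0.0347). Without both P70 replicate 5 mice it was -0.26 in WT (adjusted p = 0.00414) and -0.32 in KO (adjusted p = 0.00208), a smaller difference with a smaller p. The call was lost in WT without any 1 of the P21 WT mice or without P70 WT replicate 1 or 2, and in KO without any 1 of the P21 KO mice or without P70 KO replicate 3 or 4 (adjusted p up to 0.0736 in WT and 0.0872 in KO over all the settings tried). It was also lost in KO with replicate number as a block (adjusted p = 0.0803), and in both genotypes by limma without trend (adjusted p = 0.067 in WT and 0.0627 in KO).

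The other pyruvate dehydrogenase genes did not pass. Pdha1 had a log2 fold change of -0.19 in WT (adjusted p = 0.118) and -0.16 in KO (adjusted p = 0.226), and Dld of -0.15 (adjusted p = 0.298) and -0.11 (adjusted p = 0.509), by limma. Pcx, which competes for the same pyruvate, had 0.19 in WT (adjusted p = 0.144) and 0.12 in KO (adjusted p = 0.506). The P70 replicate 5 mice lay far out in the direction of each of these differences. Their log2 distances from the median of the rest of the group were -0.29 (WT) and -0.33 (KO) for Pdha1. They were -0.35 and -0.40 for Dld, and 0.36 and 0.50 for Pcx. Without both of these mice, Pdha1, Dld and Pcx were again not called.

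**Figure D3:**
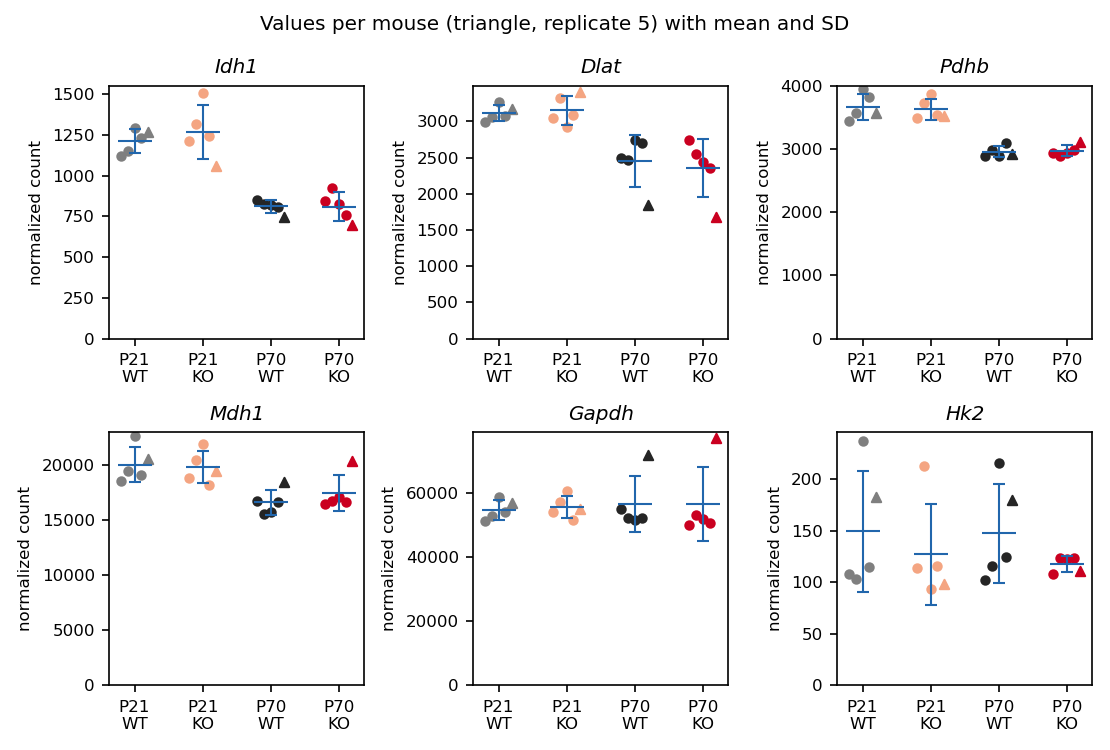
Normalized counts per mouse of Idh1, Dlat, Pdhb, Mdh1, Gapdh and Hk2 in the 4 groups (5 mice each), with the replicate 5 mouse as a triangle and the mean and SD in blue, on axes that start at 0. Idh1, Dlat and Pdhb do not overlap between ages within a genotype, and Gapdh is highest in the replicate 5 mice of both P70 groups.

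Mdh1, which moves reducing equivalents out of the cytosol in the malate-aspartate shuttle, had 18535, 19447, 22596, 19082 and 20556 normalized counts in P21 WT mice, all above the 5 P70 WT values given above. In P21 KO mice it had 18860, 20440, 21945, 18220 and 19468, and the KO mouse of replicate 5 at P70 lay among them. The log2 fold change was -0.27 in WT (standard error 0.07, adjusted p = 0.0284 by limma) and -0.18 in KO (standard error 0.08, adjusted p = 0.168). Without both P70 replicate 5 mice it was -0.31 in WT (adjusted p = 0.00395) and -0.24 in KO (adjusted p = 0.006), past the threshold in both. With all mice but 1, the WT call was lost without P21 WT replicate 2, 3, 4 or 5 and without P70 WT replicate 1, 2, 3 or 4 (adjusted p up to 0.0787 over all the settings tried). It was also lost with the replicate block (adjusted p = 0.0604) and by limma without trend (adjusted p = 0.0619).

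None of the 14 glycolysis genes passed in either genotype with all mice, which does not show that they were unchanged. With all mice their median log2 fold change was 0.03 in WT and 0.02 in KO, with 11 and 10 above 0. Without both P70 replicate 5 mice, 10 in WT and 7 in KO of all 35 members were above 0. Pkm and Eno1 had the largest, at 0.19 (adjusted p = 0.192) and 0.16 (adjusted p = 0.187) in WT and 0.15 (adjusted p = 0.496) and 0.16 (adjusted p = 0.333) in KO, by limma. Both were smaller without both P70 replicate 5 mice, where the largest of any member was 0.12 in WT and 0.09 in KO. Gapdh, with 0.03 and 0.01, and Gpi1, with 0.05 and 0.01, had small differences whose 95% intervals reached -0.24 and 0.26. Apart from replicate 5, Gapdh was at 51525 to 54916 normalized counts in P70 WT mice, beside a P21 WT mean of 54769. In P70 KO mice it was at 50027 to 53132, beside a P21 KO mean of 55604. Ldha, the subunit common in muscle and glia, had -0.15 in WT (adjusted p = 0.198) and -0.05 in KO (adjusted p = 0.755), and Ldhb 0.04 and 0.05.

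Of the 12 TCA cycle genes none passed either. Their median was -0.02 in WT and -0.04 in KO, with 8 and 9 below 0. Idh3a, the catalytic subunit of the NAD-dependent isocitrate dehydrogenase, had -0.19 in WT (adjusted p = 0.101) and -0.19 in KO (adjusted p = 0.0939), and its values did not overlap between ages in either genotype (5513 to 6013 against 4333 to 5398 normalized counts in WT, and 5485 to 5772 against 4318 to 5335 in KO). Fh1, fumarase, had -0.15 and -0.18, Sucla2, the ATP-forming succinyl-CoA synthetase subunit, had -0.15 and -0.12, and Dlst, the E2 subunit of 2-oxoglutarate dehydrogenase, had -0.09 and -0.12, none past the threshold. Cs had 0.03 and -0.02, with 95% intervals that stayed between -0.12 and 0.15. Over all members, the ages did not overlap in 7 of 35 in WT (1 higher and 6 lower at P70) and in 5 of 35 in KO (all lower), where 10.8% of all genes in WT (5.2% higher and 5.6% lower) and 10.9% in KO (5.4% higher and 5.52% lower) did not overlap.

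**Figure D4:**
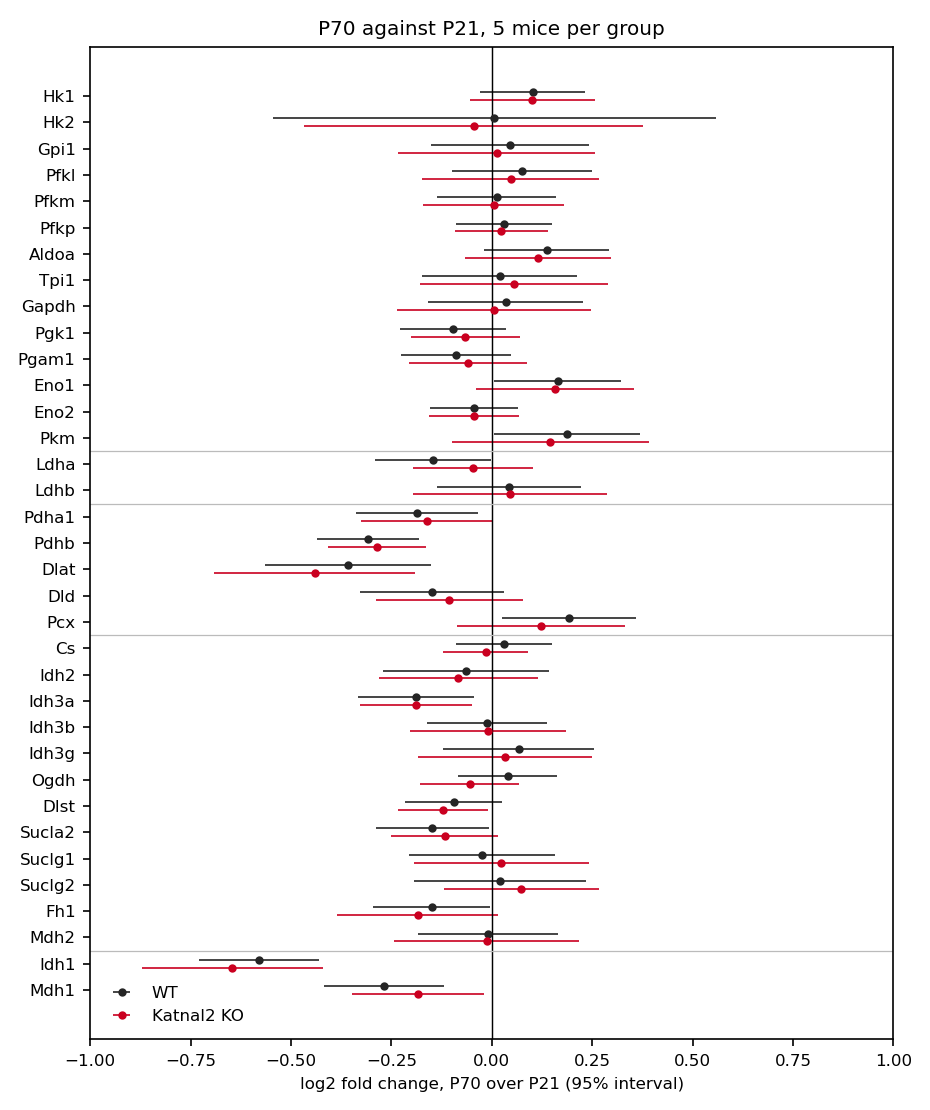
Log2 fold change, P70 over P21, of each enzyme gene (rows, in pathway order) with its 95% interval from limma in WT (black) and Katnal2-KO mice (red). The intervals of Pdhb, Dlat, Idh3a, Idh1 and Mdh1 lie below 0 in both genotypes, and those of most glycolysis genes include 0.

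Leaving out both P70 replicate 5 mice changed which members were called. In WT the members lower at P70 were then Ldha, Pdhb, Dlat, Idh1 and Mdh1 (5 of 35, or 14.3%, where 17.0% of all genes passed, 8.89% higher and 8.11% lower). In KO they were Gpi1, Pdhb, Dlat, Idh3a, Dlst, Idh1 and Mdh1 (7 of 35, or 20%, where 21.3% of all genes passed, 10.6% higher and 10.7% lower). No member was higher at P70 in either. Beside Mdh1 in KO, whose value is given above, the added calls had log2 fold changes of -0.18 for Ldha in WT (adjusted p = 0.0426) and of -0.11 for Gpi1 (adjusted p = 0.0477), -0.14 for Idh3a (adjusted p = 0.0192) and -0.13 for Dlst (adjusted p = 0.0275) in KO, by limma.

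The difference between genotypes in the age effect was tested with the interaction over 17637 genes. It passed for 0 members and 0 genes (0.0% called), with 296 genes and 0 members at an unadjusted p under 0.05. The members' interaction terms ran from -0.09 (Ogdh) to 0.10 (Ldha) on the log2 scale, and 16 of their 35 intervals lay within 1.2-fold and 34 within 1.5-fold. For Mdh1, called in WT and not in KO, the interaction was 0.09 (95% interval -0.12 to 0.30). With those P70 replicate 5 mice left out, 0 members and 0 genes passed again, with 670 genes at an unadjusted p under 0.05, and the members ran from -0.12 (Ogdh) to 0.09 (Ldha).

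Many of the members were far from the rest of the group in the P70 replicate 5 mice, about as often as genes in general. Against the median of the other 4 mice of its group, 21 of 35 members lay beyond 1.2-fold in the KO mouse (17 above and 4 below), where 64.4% of all genes did, and 20 of 35 in the WT mouse (16 above and 4 below), where 58.8% did. In the other 18 mice between 0 and 5 members lay that far out. Gapdh had 77279 normalized counts in the KO mouse against 50027 to 53132 in the other 4 and 71907 in the WT mouse against 51525 to 54916. Gpi1, glucose-6-phosphate isomerase, had 23035 against 14435 to 15574 and 21462 against 14918 to 16141. Pkm had 51314 against 32810 to 34703 and 46005 against 33620 to 34897, and Pcx 3511 against 2417 to 2563 and 3258 against 2477 to 2558. Pdha1 went the other way, with 4647 against 5515 to 6127 and 4782 against 5730 to 5909. The deviations of the 35 members had the same sign in both mice for 32 members, with r = 0.87 and rho = 0.85 across genes, which are not independent replicates.

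These deviations moved with base composition. Across the 35 members, rho between deviation and the GC content of the principal transcript (40.6% in Dld to 57.8% in Pcx) was 0.79 in the KO and 0.74 in the WT mouse. Across 17623 genes it was 0.63 and 0.60, against -0.30 to 0.19 in the other 18 mice, and rho with transcript length was -0.39 in both, a size also seen in the P21 replicate 3 mice (-0.42 in WT and -0.33 in KO). Cell type markers moved in the same mice. The summed astrocyte markers were the lowest of each P70 group there (86776 in WT and 75768 in KO, against medians of 100924 and 100655 normalized counts), and the summed markers of excitatory neurons, inhibitory neurons, choroid plexus and ependyma were the highest. The part of these markers in the deviations was not tested. The tests of age were repeated after subtracting from each mouse a smooth trend on GC content and length. Idh1, Pdhb and Dlat were still called lower in both genotypes, Mdh1 in WT was not, and Pkm in WT (log2 fold change above 0), Eno1 in KO (above 0) and Idh3a in KO (below 0) were added.

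**Figure D5:**
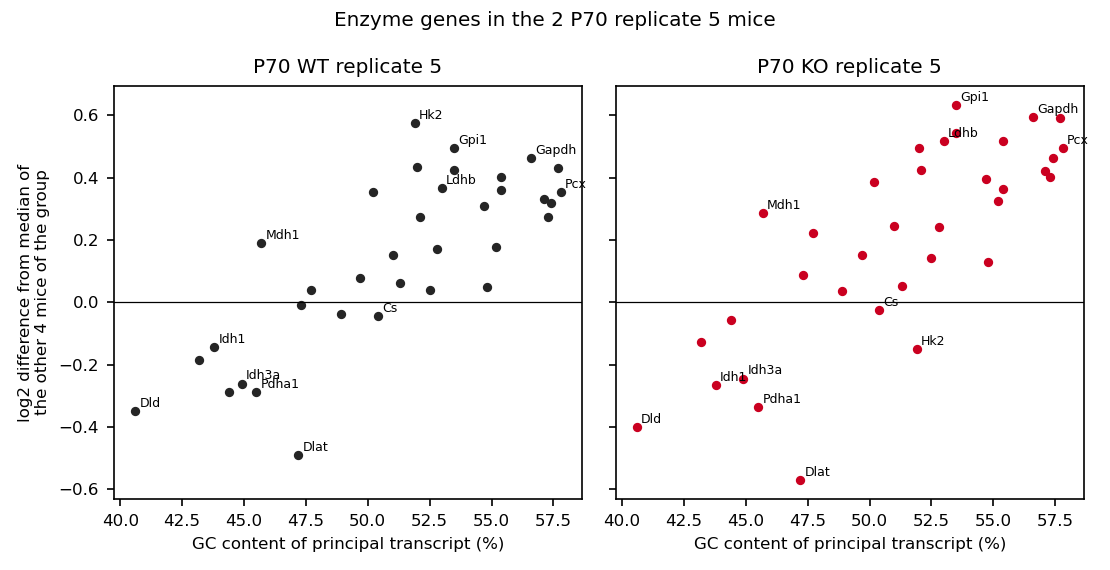
Log2 difference of each of the 35 enzyme genes from the median of the other 4 mice of its group, in the P70 WT (left) and P70 KO (right) replicate 5 mouse, against the GC content of the principal transcript in percent. Most GC-rich genes such as Gapdh and Pcx lie above 0 and the GC-poor Dlat, Dld and Pdha1 below it in both mice.

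Balance between enzymes was compared as 10 ratios of isozymes or subunits within each mouse, which do not depend on how the library is scaled. Over the 4 comparisons of 2 groups (40 exact two-sided permutation tests, adjusted together), 0 ratios passed an adjusted p of 0.05. With 5 against 5 mice the smallest p possible is 0.00794. After adjustment over the 40 tests, even a ratio at that smallest p could not pass unless more of the tests reached it. A count of 0 passing between ages therefore does not show that the ratios were unchanged. Between KO and WT no ratio came near, with smallest adjusted p-values of 0.34 at P21 and 0.56 at P70 in these permutation tests. Between ages, 3 ratios did not overlap in either genotype and reached that smallest p (adjusted p = 0.0529 by exact permutation). The log2 ratio of the mitochondrial Idh2 to the cytosolic Idh1 lay between -0.29 and -0.05 in P21 WT and between 0.09 and 0.80 in P70 WT mice, a difference of means of 0.52. In KO mice it lay between -0.42 and -0.13 at P21 and between -0.01 and 0.79 at P70, a difference of 0.56. The ratio of mitochondrial Mdh2 to cytosolic Mdh1 was higher at P70 by 0.26 in WT and 0.17 in KO, and that of Pcx to Pdha1 by 0.38 and 0.28. Without both P70 replicate 5 mice the differences were 0.40 in WT and 0.43 in KO for Idh2 to Idh1, 0.22 and 0.12 for Mdh2 to Mdh1, and 0.25 and 0.12 for Pcx to Pdha1, still with no overlap, and again 0 ratios passed (smallest adjusted p = 0.0794 by exact permutation).

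In each of these 3 ratios the numerator is the more GC-rich gene (Idh2 55.4% against Idh1 43.8%, Mdh2 55.4% against Mdh1 45.7%, Pcx 57.8% against Pdha1 45.5%), and the replicate 5 mouse had the highest ratio of each P70 group. The part of base composition in the ratios was not tested, and in the 4 other P70 mice of each genotype the ratio of Idh2 to Idh1 was 0.09 to 0.27 in WT and -0.01 to 0.20 in KO, still above every P21 mouse. The neuronal to ubiquitous enolase ratio, Eno2 to Eno1, was lower at P70 by a log2 difference of -0.21 in WT and -0.20 in KO (adjusted p = 0.0866 in both by exact permutation), with overlapping groups.

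The genes around these enzymes were followed in 8 further lists, read against 9.32% of genes called in WT and 8.32% in KO between ages, and 0 of their genes passed between genotypes. Other glycolysis genes (16 tested) had 1 higher and 1 lower at P70 in WT and 1 higher and 2 lower in KO. Pfkfb3, which makes the activator of phosphofructokinase, rose from 913.2 ± 100.3 to 1304 ± 117 normalized counts in WT (SD, n = 5, log2 fold change 0.52, adjusted p = 0.00354 by limma) and by 0.51 on the log2 scale in KO (adjusted p = 0.00185). Bpgm, bisphosphoglycerate mutase, abundant in red cells, fell by 0.35 in WT (adjusted p = 0.0105 by limma) and by 0.27 in KO (adjusted p = 0.0281) on the log2 scale. Other TCA-linked genes (12 tested) had 2 lower in WT and 1 in KO, and Aco1, the cytosolic aconitase and iron sensor, fell from 1137 ± 70.3 to 864.2 ± 21.5 normalized counts in WT (SD, n = 5, log2 fold change -0.39, adjusted p = 0.00249 by limma) and by 0.47 on the log2 scale in KO (adjusted p = 0.00152).

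Of 10 glucose and lactate transporter genes, 1 was lower at P70 in WT and 3 in KO, and 4 and 6 without both P70 replicate 5 mice. Slc16a1, the monocarboxylate transporter MCT1 that carries lactate and ketone bodies, fell from 1274 ± 151 to 826.4 ± 86.5 normalized counts in WT (SD, n = 5, log2 fold change -0.62, adjusted p = 0.0015 by limma) and by 0.47 on the log2 scale in KO (adjusted p = 0.0348). Among the genes of ketone body use, Oxct1, which activates acetoacetate, fell from 10500 ± 505 to 7780 ± 612 normalized counts in WT (SD, n = 5, log2 fold change -0.44, adjusted p = 0.00135 by limma) and by 0.43 on the log2 scale in KO (adjusted p = 0.00271), and Bdh1, the hydroxybutyrate dehydrogenase, fell by 0.26 and 0.44 (adjusted p = 0.0328 and 0.0143).

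Among 10 genes of pyruvate dehydrogenase control and pyruvate import, 1 was higher and 1 lower in WT and 0 in KO. Of 10 glycogen genes 1 was higher in each genotype, namely Pygb, the brain glycogen phosphorylase (log2 fold change 0.26 in WT, adjusted p = 0.019, and 0.24 in KO, adjusted p = 0.038, by limma). Of 8 pentose phosphate genes 0 passed in either genotype (2 and 4 were lower without both P70 replicate 5 mice), and of 12 genes of the redox shuttles and of glutamate entry 0 passed in WT and 1 in KO (2 and 4 lower without those mice). Among the calls made in only 1 genotype were Pdk4, an inhibitory kinase of pyruvate dehydrogenase (log2 fold change 0.71 in WT and 0.04 in KO), Pdhx (-0.29 and -0.22), Me1 (-0.26 and -0.22), Hkdc1 (-0.26 and -0.67), Slc2a1 (-0.17 and -0.55), Slc16a3 (-0.52 and -0.76) and Abat (-0.17 and -0.26). With both P70 replicate 5 mice left out, Pfkfb3 (0.57 in WT and 0.56 in KO), Bpgm (-0.37 and -0.30), Aco1 (-0.40 and -0.49), Slc16a1 (-0.60 and -0.41), Oxct1 (-0.38 and -0.40), Bdh1 (-0.30 and -0.52) and Pygb (0.25 and 0.21) were still called in both genotypes. The genes called in 1 genotype are named because of their values, and no gene passed the interaction test, whose smallest adjusted p was 0.435 by limma.

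Markers of other cells moved with age beside these enzymes. Of 10 oligodendrocyte markers 9 were lower at P70 in each genotype (median log2 fold change -1.11 in WT and -1.28 in KO), with summed levels of 408686 to 461117 normalized counts in P21 WT, 408566 to 599567 in P21 KO, 173559 to 197971 in P70 WT and 156658 to 206237 in P70 KO mice. Of 10 precursor markers 7 were lower in WT and 8 in KO (medians -0.55 and -0.60), with summed levels of 27090 to 31759, 27229 to 32855, 19779 to 21932 and 18964 to 21111 in the same order of groups. Of 5 blood markers 5 were lower in WT and 4 in KO, with summed levels of 24464 to 61276, 12038 to 30949, 6982 to 9945 and 7287 to 13110. The summed excitatory neuron markers overlapped between ages (105957 to 114536 in P21 WT, 103252 to 113006 in P21 KO, 105086 to 120168 in P70 WT and 106695 to 117782 in P70 KO), as did those of inhibitory neurons, astrocytes, microglia and ependyma within a genotype. The summed endothelial markers did not overlap in WT (6665 to 7699 at P21 and 4707 to 6625 at P70) and did in KO mice. Of 10 markers each, the lists of endothelium (2 and 1 lower), choroid plexus (1 and 0 higher), ependyma (0 and 1 lower), astrocytes (0 and 1 higher), excitatory neurons (1 higher and 1 lower in WT, 2 higher in KO), inhibitory neurons (0 and 0) and microglia (0 and 0) had few calls in WT and KO. Their part in the lower Idh1, Pdhb, Dlat and Mdh1 was not tested. Between genotypes 0 markers passed in any list.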

How the data were processed

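The authors purified poly-A RNA (TruSeq), sequenced it as paired reads, and quantified transcripts against GRCm38 in Salmon 1.1.0 with its GC bias option. Gene-level estimates then passed through tximport to DESeq2 (1.26.0 in R 3.6.2, versions per the submitters' processing notes), which scaled them. The single deposited table holds these normalized counts, a signal for 19463 genes from which whole reads could not be recovered, so no count test was run. Columns were matched to samples by title. Symbols, lengths, GC content and coordinates came from GENCODE M21 (19447 IDs). Genes with a mean of at least 10 were fitted per comparison with limma 3.58.1 (R 4.3.3, eBayes with trend) on log2(value + 1), which understates changes of low genes. P-values were adjusted by Benjamini-Hochberg over all genes, threshold 0.05. Intervals are at 95%.

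Depth per mouse was estimated from the spacing of low values. Members, lists, ratios, markers and the rule for named genes were chosen with earlier results of these data known. Values in every mouse are given for members called in both age comparisons, and for the 3 members with the smallest p per genotype comparison; from other lists, up to 2 genes called in both age comparisons. Alternatives were limma without trend, pseudocount 10, no filter, a mean of at least 100, quantile normalization, median-ratio rescaling, a replicate block, a single fit of all mice, each mouse left out, and both P70 replicate 5 mice left out; the GC and length corrections (spline, 5 degrees of freedom) were added after seeing the data. P-values measure the spread between these mice. A result of the ketone body list, and the counts that include it, are not reported here.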

Additional observations from a re-analysis of the deposited data

Results flagged for a closer look

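In 30 of 140 groups of 5 mice, the highest or lowest mouse stood apart from the rest, with a gap to its nearest neighbour of over 0.71 of the group's range; chance flags about 1 in 20 groups, or 7. In 15 of them the mouse was the P70 KO replicate 5 mouse and the highest: Hk1 (gap 0.896 of the range), Gpi1 (0.868), Pfkm (0.918), Aldoa (0.854), Tpi1 (0.778), Gapdh (0.886), Eno1 (0.865), Pkm (0.898), Ldhb (0.783), Pcx (0.867), Idh3b (0.712), Idh3g (0.783), Suclg1 (0.783), Mdh2 (0.853) and Mdh1 (0.84). In the P70 WT replicate 5 mouse, the highest were Gpi1 (gap 0.813 of the range), Pfkm (0.831), Aldoa (0.799), Gapdh (0.834), Eno1 (0.843), Pkm (0.897), Pcx (0.896), Idh2 (0.79), Idh3g (0.913) and Mdh2 (0.76), and the lowest was Pdha1 (0.841). The chance figure of 7 takes genes as independent, and flags over all genes were not counted. In the P70 KO and WT replicate 5 mice, 64.4% and 58.8% of all genes lay beyond 1.2-fold of the median of the rest of the group. The 9 genes that stood out as highest in both of these mice have a GC content of 52.0% to 57.8%, where the median of the members is 52.0%.

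The other 4 were Hk2 in the P21 KO replicate 2 mouse (213.1 normalized counts, the highest, gap 0.814 of the range), Pfkm in P21 KO replicate 4 (10955, the lowest, 0.724), Cs in P21 WT replicate 5 (6794, the highest, 0.834) and Suclg2 in P70 KO replicate 2 (555.4, the highest, 0.746).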

How the results depend on the processing

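Under every alternative, Idh1 was lower at P70 in both genotypes and past the threshold (adjusted p 6.41e-05 to 0.00339 in WT and 3.46e-05 to 0.00993 in KO, by limma), as was Pdhb in WT (0.000311 to 0.0258). Pdhb in KO passed under 20 of 21 alternatives (0.000417 to 0.0501), Dlat under 13 of 21 in WT (0.00414 to 0.0736) and 12 of 21 in KO (0.00208 to 0.0872), and Mdh1 under 9 of 21 in WT (0.00395 to 0.0787) and 2 of 21 in KO (0.006 to 0.377). Of 291 values of single members, 259 kept their direction and side of the threshold, 30 kept their direction and lost it, 2 gained it, and none turned; the cause was not tested. Without trend, only Pdhb and Idh1 were called in each genotype.

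Same-numbered mice are different animals. Between genotypes, their deviations correlated at -0.009 to 0.26 (mean 0.1) at P21 and at 0.075 to 0.705 (mean 0.255) at P70. Between ages they correlated at -0.119 to 0.16. Of 5 pairs, 2 at P21 and 3 at P70 correlated best with their own number between genotypes. Between ages 2 of 5 did in WT and 1 of 5 in KO. Whether same-numbered mice of an age shared a step of preparation was not tested, and the main fits treat all mice as unpaired. With the replicate block, Idh1 alone was called among the members in KO (1 member; Pdhb adjusted p = 0.0501, Dlat 0.0803) and 913 genes in all, while in WT Pdhb, Dlat and Idh1 were called (Mdh1 adjusted p = 0.0604) among 1265 genes; it changed no call between genotypes. With the GC and length correction, 1 member was higher in WT (Pkm) and 1 in KO (Eno1), among 2908 and 2978 genes, and with that correction and the block 2325 genes were called in KO. Without both P70 replicate 5 mice, 3000 genes were called between ages in WT, 3759 in KO (7 members) and 1 between genotypes at P70.

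Leaving out 1 mouse at a time gave 2 to 5 members lower and 912 to 3000 genes called between ages in WT (912 without P21 WT replicate 4, 3000 without P70 WT replicate 5), and 2 to 7 members and 896 to 3759 genes in KO (943, 957 and 896 without P21 KO replicates 1, 2 and 4, 3759 without P70 KO replicate 5). Dlat was lost in WT without any 1 of the P21 WT mice or P70 WT replicate 1 or 2, and in KO without any 1 of the P21 KO mice or P70 KO replicate 3 or 4. Mdh1 in WT was lost without any P21 WT mouse but replicate 1, and without P70 WT replicates 1 to 4. Between genotypes it gave 0 members, with 0 to 1 genes at P21 (1 without P21 KO replicate 4 or P21 WT replicate 3) and 0 at P70. Of the ratios, 0 to 4 passed between ages in each genotype (3 or 4 without P70 KO replicate 1 or 2 or P70 WT replicate 1 or 4), and 0 without both P70 replicate 5 mice, a setting added for the ratios after seeing the data. Precision rests on 5 mice per group: at P70, 21 of 35 members were bounded within 1.2-fold between genotypes with all mice and 33 without those 2, whose estimated depth was the highest of the P70 mice.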
